A study of Mus musculus with 13 samples.

Results

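The 10 genes described here make fatty acids and triglycerides or control the genes that do: Acly, Acaca, Fasn, Elovl6, Elovl1, Scd1, Scd2, Gpam, Dgat2 and Srebf1. They were taken by symbol from the 20270 genes listed in the lung expression tables, and all 10 were among the 15315 genes that passed the filter on low counts. RNA from the right lower lung lobe of 13 mice was sequenced, and each library is taken here as 1 mouse. Control mice were WT mice 3, 21, 24 and 26, and the methods give sterile saline as their treatment. WT bleomycin mice were 4, 2, 5, 4-B2 and 7, and CB1R KO bleomycin mice were 8, 9, 10 and 11. Both of these groups had inhaled 1 U per kg of bleomycin, a DNA-damaging drug that scars the lung, as a single oropharyngeal dose 14 days earlier. The WT mice of the study were male C57BL/6J, 13 weeks old, and the CB1R KO mice carried a deletion of Cnr1 (Cnr1-/-) in every cell on the same background, with their age and sex not given in the sources used here. No CB1R KO mice free of bleomycin are analysed here, so that genotype and treatment cannot be told apart between CB1R KO bleomycin and control.

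Fatty acid synthesis starts from citrate in the cytosol, which ATP citrate lyase splits into acetyl-CoA. Acetyl-CoA carboxylase turns that into malonyl-CoA, fatty acid synthase joins the units into palmitate, and elongases and desaturases then lengthen the chain and add double bonds. Acyltransferases load the finished acids onto glycerol, and in liver and fat the transcription factor SREBP-1 switches on most of these steps. In the lung, type II cells, which line the alveoli and secrete surfactant, make fatty acids for surfactant phospholipids, and adipocytes lie around the large airways and vessels. CB1R is the cannabinoid receptor encoded by Cnr1, and its activation in liver is known to raise lipogenic genes, which is the reason to compare these genes in its absence.

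Of the 13 libraries, 12 held between 14615904 and 16662580 estimated counts and CB1R KO mouse 11 held 53463884. Levels are given below as normalised counts (CPM), which are scaled to the library total by TMM and serve to compare a gene across mice, and as TPM, which are also scaled for transcript length and serve between genes. Fold changes are on the log2 scale with their standard error, and a gene is called changed where its p from the quasi-likelihood test of edgeR, adjusted by Benjamini-Hochberg over the 15315 genes tested, was under 0.05. Cnr1 did not separate the genotypes: it was at 3.46 to 6.97 CPM in the WT bleomycin mice and at 2.47 to 5.63 CPM in the CB1R KO mice, so the counts do not check that label. Each of 7 listed markers of cells found in lung tissue was detected in every library.

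Per transcript length, Scd1, Elovl1 and Scd2 were the most abundant of the 10 and Elovl6 the least. In control lungs the mean level was 360 TPM for Scd1, 357 TPM for Elovl1 and 250.1 TPM for Scd2, and the ranges of Scd1, Elovl1 and Scd2 overlapped from each to the next. Acly at 110.5 TPM and Fasn at 108.3 TPM overlapped with each other and lay below Scd2 without overlap. Srebf1 at 51.9 TPM, Gpam at 43.9 TPM, Dgat2 at 26.0 TPM and Acaca at 21.0 TPM followed, with Dgat2 and Acaca overlapping. Elovl6 came last at 3.00 TPM, below every control value of Acaca. After bleomycin the order was Scd1, Elovl1 and Scd2 without overlap in both genotypes, at 843.5, 473 and 249.8 TPM in WT mice and at 1108, 600.1 and 261.5 TPM in CB1R KO mice. Dgat2 fell below Acaca in that order: in WT bleomycin lungs its mean of 9.63 TPM was under the 20.1 TPM of Acaca without overlap.

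The promoters of these genes are shown for what they share in sequence, since SREBP-1 is known to act together with NF-Y, a factor that binds CCAAT boxes. RefSeq promoter entries on GRCm38.p6 were found for 7 of the 10 genes, in 11 windows, and none was found for Scd1, Scd2 and Dgat2. In the 250 bases before the start, read on both strands, CCAAT occurred in 5 of the 11 windows, which belong to 4 of the 7 genes, beside 33.8% of 32851 mouse promoter windows of the same length. The sterol regulatory element core TCACNCCAC was in none of the 11, beside 1.05% of all windows, and the E-box CACGTG was in none, beside 6.02%. Only these exact sequences were searched, so variant forms of either element, or elements outside the 250 bases, would not be counted. Gpam and Srebf1 were lower in WT bleomycin than in control lungs, Elovl1 was higher and Fasn was not called, so that the 4 genes with CCAAT did not move in one direction. The stretches below run 5′ to 3′ on the strand of each gene, with CCAAT or its complement ATTGG in capitals, which overlap at the second place in Fasn. They lie at chr11:120824587-120824652 on the minus strand for Fasn, chr4:118428043-118428077 on the plus strand for Elovl1, chr11:60222728-60222762 and chr11:60210482-60210516 on the minus strand for starts 1 and 3 of the 3 starts of Srebf1, and chr19:55127293-55127327 on the minus strand for Gpam.
Fasn: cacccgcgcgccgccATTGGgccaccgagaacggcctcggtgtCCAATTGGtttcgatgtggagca
Elovl1: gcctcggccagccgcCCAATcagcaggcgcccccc
Srebf1, start 1: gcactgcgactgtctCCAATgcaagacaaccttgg
Srebf1, start 3: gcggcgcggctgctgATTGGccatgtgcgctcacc
Gpam: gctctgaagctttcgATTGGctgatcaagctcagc

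The first comparison asks which of the 10 genes changed with bleomycin. In WT bleomycin against control lungs the desaturase gene Scd1 and the elongase gene Elovl1 rose, while Acly at the entry to the pathway, its regulator Srebf1 and the triglyceride genes Gpam and Dgat2 fell. Of the 10 genes, 2 were called higher and 4 lower, beside 25% of all genes tested higher and 23.9% lower. The median log2 fold change of the 10 was -0.12, beside -0.01 over all genes tested. The remaining 4 genes, Fasn, Acaca, Scd2 and Elovl6, were not called. In whole lung, fewer cells of a type and less RNA in each cell cannot be told apart, here or in any comparison below. The share of all genes tested whose groups did not overlap was not counted, so separate groups are described without that background throughout.

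**Figure D1:**
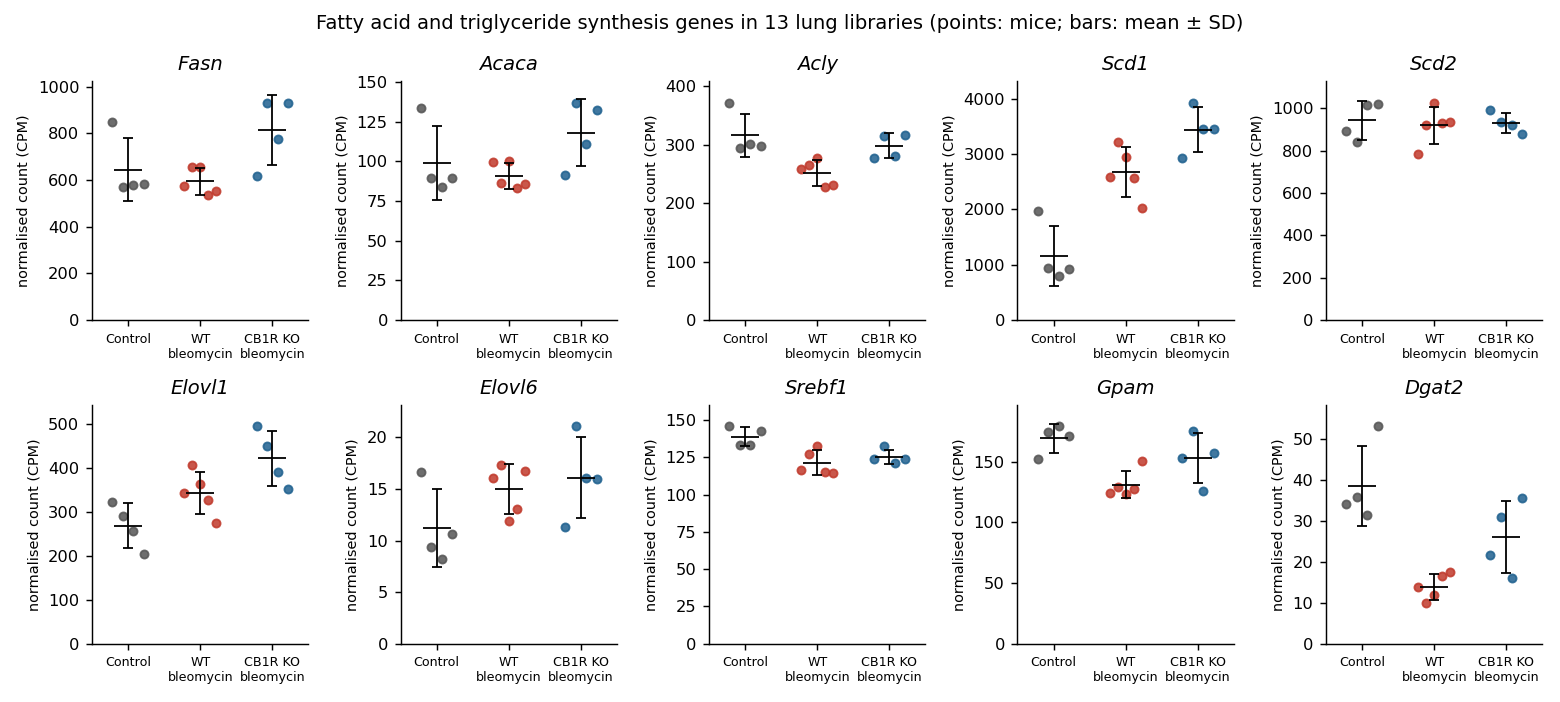
Normalised counts (CPM, linear axes from 0) of the 10 genes in each of 13 mice, with points for mice and bars for the mean ± SD of 4 control, 5 WT bleomycin and 4 CB1R KO bleomycin mice. Scd1 was above and Dgat2 below every control mouse in all 5 WT bleomycin mice, and control mouse 3 was the highest control for Fasn, Acaca, Acly and Scd1.

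Scd1, the stearoyl-CoA desaturase that makes oleate and palmitoleate, had the largest rise of the 10. It was at 1968, 936, 796.4 and 918.9 CPM in control mice 3, 21, 24 and 26. In the WT bleomycin mice 4, 2, 5, 4-B2 and 7 it reached 2588, 3219, 2949, 2568 and 2021 CPM. Every WT bleomycin mouse was above every control, although control mouse 3 came close to the lowest of them. The rise was 2.31-fold (log2 1.21 ± 0.23 SE, edgeR adjusted p = 0.000543).

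Elovl1, which extends saturated chains to very long fatty acids, rose by less and with overlap. Control mice 3, 21, 24 and 26 had 323, 289.6, 256.1 and 203 CPM. WT bleomycin mice 4, 2, 5, 4-B2 and 7 had 343.8, 406.2, 362.4, 326.7 and 274.6 CPM. Mouse 7 lay inside the control range and the other 4 lay above it. Its log2 fold change was 0.35 ± 0.14 SE (edgeR adjusted p = 0.0457), and the call was lost when any one of control mice 21, 24 and 26, WT mice 4, 2, 5 and 4-B2 or CB1R KO mouse 9 was left out (adjusted p from 0.0509 to 0.16).

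Dgat2, an acyltransferase that completes triglycerides, had the largest fall. Control mice 3, 21, 24 and 26 had 34.0, 35.8, 31.3 and 53.0 CPM. The WT bleomycin mice 4, 2, 5, 4-B2 and 7 had 13.9, 9.87, 11.9, 16.6 and 17.5 CPM. All 5 were below every control, with a difference of 2.76-fold (log2 -1.47 ± 0.23 SE, edgeR adjusted p = 0.00012). Adipocyte genes moved the same way: 5 of 7 tested markers were lower in WT bleomycin lungs, beside 23.9% of all genes tested. The summed level of the 8 listed markers was 74.8 to 232.7 CPM in control and 22.8 to 102.8 CPM in WT bleomycin mice, with Lep at 0 in a WT library. With the mean log2 level of those markers in the model, the fall of Dgat2 was -1.02 ± 0.28 SE (edgeR adjusted p = 0.0156). Type II cell and lipofibroblast markers were mostly lower too, as given below. With the type II markers in the model the fall was -1.26 ± 0.45 SE (adjusted p = 0.0927). The level of those markers did not overlap between these groups and cannot be told apart from bleomycin in that fit.

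Gpam encodes the mitochondrial acyltransferase that begins glycerolipid synthesis. It was at 152.2, 174.6, 179 and 170.9 CPM in control mice 3, 21, 24 and 26, and at 124.1, 128.9, 123.1, 127.8 and 150.2 CPM in WT bleomycin mice 4, 2, 5, 4-B2 and 7. The groups did not overlap, by a margin of control mouse 3 over WT mouse 7 that was small beside the spread within either group. Its log2 fold change was -0.37 ± 0.09 SE (edgeR adjusted p = 0.00324).

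Acly, the citrate lyase, and Srebf1, which encodes SREBP-1, fell more modestly. Acly had 372.1, 295.1, 301.1 and 298.4 CPM in control mice 3, 21, 24 and 26, and 259.4, 266, 277.2, 227.7 and 230.7 CPM in WT bleomycin mice 4, 2, 5, 4-B2 and 7. Srebf1 had 145.6, 133.3, 133.3 and 142.5 CPM in the control and 116.4, 127.4, 132.8, 115.2 and 114.4 CPM in the WT bleomycin mice, in the same order. Neither gene overlapped between the groups, though WT mouse 5 was close to the lower Srebf1 controls. The log2 fold change was -0.33 ± 0.09 SE for Acly (edgeR adjusted p = 0.00514) and -0.19 ± 0.06 SE for Srebf1 (adjusted p = 0.0141). With the adipocyte markers in the model neither was called, at -0.18 ± 0.11 SE for Acly (adjusted p = 0.223) and -0.13 ± 0.08 SE for Srebf1 (adjusted p = 0.244). Control mouse 26 and WT mice 4-B2 and 7 have titles written with capitals. With that style in the model of all mice both genes were still called lower. Among the mice with lower-case titles alone, which leaves control mice 3, 21 and 24 and WT mice 4, 2 and 5, neither was called. Acly was then at -0.27 ± 0.10 SE (edgeR adjusted p = 0.0513) and Srebf1 at -0.13 ± 0.07 SE (adjusted p = 0.197).

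Fasn and Acaca, the synthase and the carboxylase at the centre of the pathway, were not called, and their values in WT bleomycin mice overlapped those of the controls. Fasn was at 850, 569.9, 578.5 and 582.4 CPM in control mice 3, 21, 24 and 26, and at 575.8, 656.4, 656.5, 535.4 and 553.4 CPM in WT bleomycin mice 4, 2, 5, 4-B2 and 7. Acaca was at 133.2, 89.2, 83.7 and 89.1 CPM in control and 99.4, 86.0, 100.3, 83.2 and 85.4 CPM in WT bleomycin mice. Their log2 fold changes were -0.12 ± 0.14 SE for Fasn (edgeR adjusted p = 0.516) and -0.12 ± 0.14 SE for Acaca (adjusted p = 0.499). Without control mouse 3 the signs turned, to 0.05 for Fasn and 0.06 for Acaca.

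Elovl6, which lengthens palmitate to stearate, was among the genes with the fewest counts. It was at 16.7, 9.41, 8.22 and 10.6 CPM in control mice 3, 21, 24 and 26 and at 16.1, 17.3, 11.9, 13.01 and 16.7 CPM in WT bleomycin mice 4, 2, 5, 4-B2 and 7. All WT bleomycin mice were above control mice 21, 24 and 26, while control mouse 3 lay inside the WT bleomycin range. The log2 fold change was 0.42 ± 0.21 SE (edgeR adjusted p = 0.113), and without control mouse 3 it was 0.67 (adjusted p = 0.0095).

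Control mouse 3 thus bore on several genes at once. It was the highest of the controls for 7 of the 10 genes (Fasn, Acaca, Acly, Scd1, Elovl1, Elovl6 and Srebf1) and the lowest for Gpam. Its summed adipocyte markers were 200.9 CPM and those of control mouse 26 were 232.7 CPM, while control mice 21 and 24 had 84.2 and 74.8 CPM. Control mouse 26 had the most Dgat2, at 53.0 CPM, and Fasn at 582.4 CPM, next to the other controls.

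**Figure D2:**
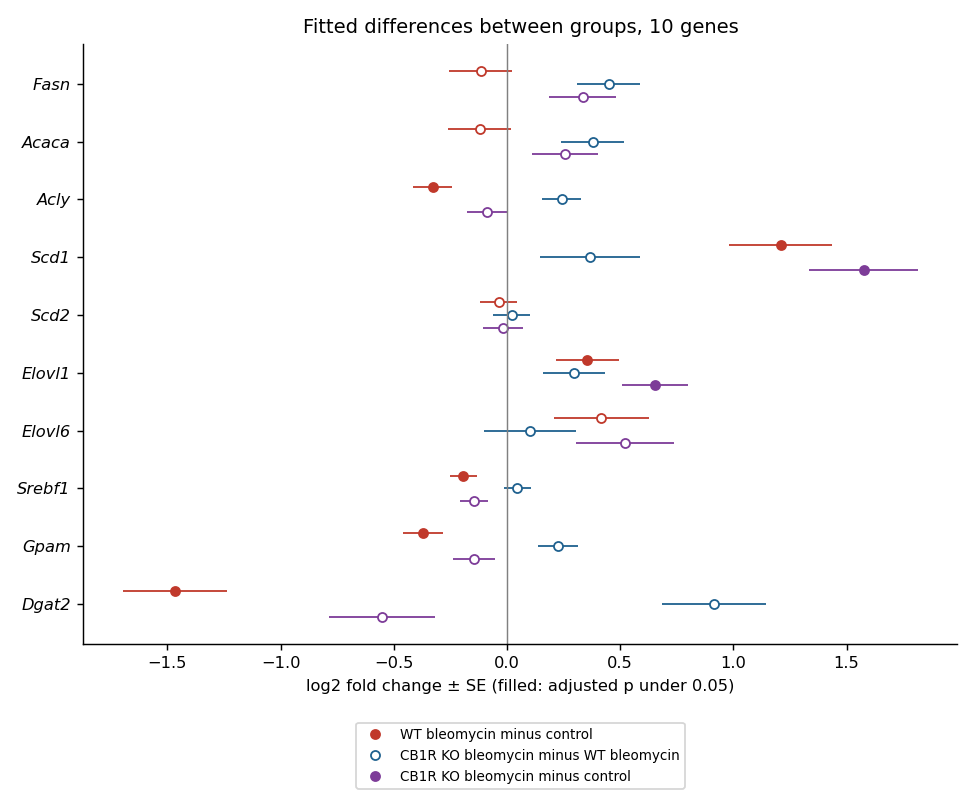
Log2 fold change ± SE of the 10 genes in 3 comparisons, from edgeR, with filled circles for an adjusted p under 0.05. Between WT bleomycin and control 6 genes are filled, between CB1R KO and WT bleomycin none is and all 10 lie to the right of 0, and between CB1R KO bleomycin and control Scd1 and Elovl1 are filled.

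Scd2, the second desaturase gene, was not called where Scd1 rose, and its groups overlapped. It had 893.7, 841.3, 1017 and 1023 CPM in control mice 3, 21, 24 and 26, and 784.3, 922.4, 1027, 930.5 and 934.1 CPM in WT bleomycin mice 4, 2, 5, 4-B2 and 7. The log2 fold change was -0.04 ± 0.08 SE (edgeR adjusted p = 0.736). Per transcript length, the ratio of Scd1 to Scd2 was 2.55, 1.32, 0.917 and 1.05 in control mice 3, 21, 24 and 26, and 3.85, 4.00, 3.36, 3.19 and 2.51 in WT bleomycin mice 4, 2, 5, 4-B2 and 7. The other 3 controls were below all WT bleomycin mice, and control mouse 3 was just above WT mouse 7. CB1R KO mice 8, 9, 10 and 11 had ratios of 3.43, 4.79, 4.32 and 4.47, with the lowest inside the WT range. Control mice had a mean ratio of 1.46 ± 0.75 (SD, n = 4). WT bleomycin mice had 3.38 ± 0.59 (SD, n = 5), and the 4 CB1R KO mice averaged 4.25 ± 0.58 (SD). No test was made on the ratio. The Scd genes are close copies of each other, and how the counting shared reads between them is uncertain.

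**Figure D3:**
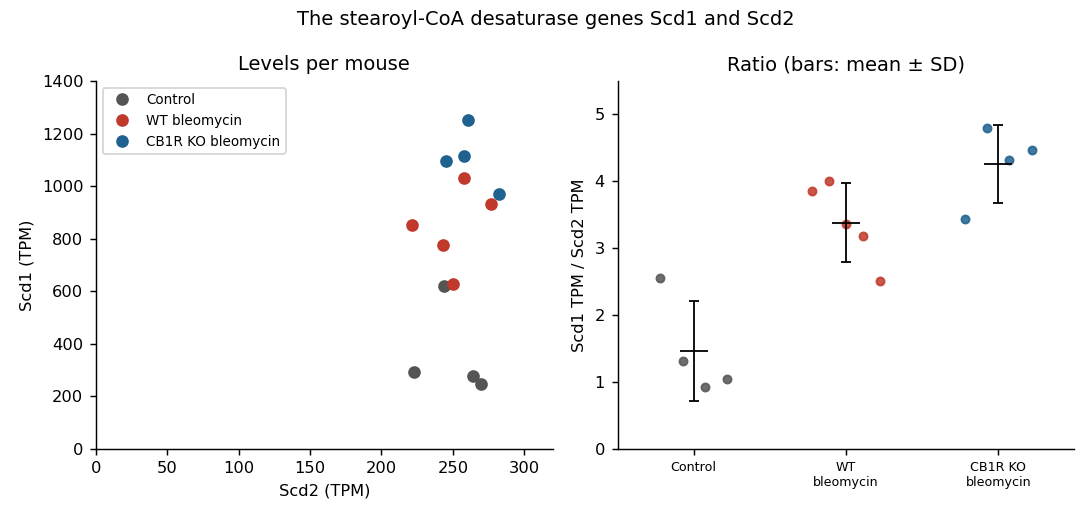
Left, Scd1 against Scd2 in TPM for each of 13 mice; right, their ratio per mouse with the mean ± SD of each group. Scd2 stays between 221.3 and 282.4 TPM in all mice, while Scd1 runs from 247.4 TPM in a control to 1250 TPM in a CB1R KO mouse.

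Deletion of Cnr1 was compared within bleomycin-treated mice, to ask whether lipogenic genes responded to loss of the receptor. Between these genotypes none of the 10 genes was called, where 0.359% of all genes tested were higher and 0.62% lower. All 10 had a fold change above 0, with a median log2 of 0.27, beside 7673 of the 15315 genes tested above 0 with a median of 0.00. At an unadjusted p under 0.05, 6 of the 10 passed (Fasn, Acaca, Acly, Elovl1, Gpam and Dgat2), beside 2608 of all genes tested. With DESeq2 on all libraries, 2 of the 10 were called, Fasn (adjusted p = 0.0383) and Dgat2 (adjusted p = 0.00621), both higher, beside 1.73% of the 15602 genes with an adjusted p from DESeq2 higher and 2.37% lower. Markers of 3 lipid-handling cell types had fold changes above 0 in the same lungs, though the summed adipocyte and lipofibroblast levels overlapped between the genotypes. All 7 tested adipocyte markers had a fold change above 0 (median log2 1.44, none called), as did all 10 type II cell markers (median 0.40, 3 called) and all 6 lipofibroblast markers (median 0.42, 1 called).

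Dgat2 had the largest difference between the genotypes. In CB1R KO mice 8, 9, 10 and 11 it was at 21.6, 30.8, 16.1 and 35.6 CPM, against 9.87 to 17.5 CPM in WT bleomycin mice. Mice 8, 9 and 11 were above every WT bleomycin mouse and mouse 10 was inside their range. On the log2 scale the difference was 0.91 ± 0.23 SE (edgeR adjusted p = 0.0702), and without CB1R KO mouse 10 it was 1.08 (adjusted p = 0.0147). The titles of control mouse 26 and WT mice 4-B2 and 7 are written with capitals and those of all CB1R KO mice are not. With that style in the model the difference was 1.17 (adjusted p = 0.0457), and among the mice with lower-case titles it was 1.15 ± 0.24 SE (adjusted p = 0.131). Mice 9 and 11 also had the most adipocyte markers of the bleomycin-treated mice, with sums of 187.1 and 164.5 CPM, and mice 8 and 10 had 55.4 and 75.2 CPM. With the adipocyte markers in the model the difference in Dgat2 was 0.53 ± 0.27 SE (adjusted p = 0.704). In that fit 0 of the 15315 genes tested were called between the genotypes. The mean log2 level of those markers was 0.90 to 2.66 in WT bleomycin and 2.06 to 3.62 in CB1R KO mice. It is thus partly tied to genotype, and the part of adipocytes in the difference was not tested.

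Fasn was at 616.2, 930.5, 774.7 and 931.4 CPM in CB1R KO mice 8, 9, 10 and 11, against 535.4 to 656.5 CPM in WT bleomycin mice. Acaca was at 91.5, 136.8, 111 and 132.5 CPM, against 83.2 to 100.3 CPM. For both genes mouse 8 lay within the WT range and the other 3 CB1R KO mice lay above it. Log2 fold changes were 0.45 ± 0.14 SE for Fasn (edgeR adjusted p = 0.128) and 0.38 ± 0.14 SE for Acaca (adjusted p = 0.189). With the adipocyte markers in the model they were 0.21 ± 0.16 SE and 0.10 ± 0.15 SE, in the fit whose marker level is partly tied to genotype.

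Acly was the gene of the 10 whose genotypes did not overlap, and the share of all genes tested without overlap was not counted. CB1R KO mice 8, 9, 10 and 11 had 278.1, 315.5, 281.1 and 317.6 CPM, and the highest WT bleomycin mouse had 277.2 CPM. Mouse 8 was only just above that WT mouse, and the log2 fold change was 0.24 ± 0.09 SE (edgeR adjusted p = 0.167).

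Gpam was at 153.4, 175.2, 125.7 and 157 CPM in CB1R KO mice 8, 9, 10 and 11, with mouse 10 inside the WT bleomycin range of 123.1 to 150.2 CPM and the others above it. It differed by log2 0.22 ± 0.09 SE (edgeR adjusted p = 0.218), and without mouse 10 it was 0.31 (adjusted p = 0.0444). Type II cell markers also differed between these lungs. Their sum was 12971 to 14757 CPM in WT bleomycin mice, 15077 CPM in CB1R KO mouse 10 and 20496 to 23281 CPM in the other 3 CB1R KO mice. With the type II markers in the model the difference in Gpam was -0.06 ± 0.14 SE, but the level of those markers did not overlap between the genotypes after bleomycin and cannot be told apart from genotype in that fit.

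For the desaturases, elongases and Srebf1 the edgeR adjusted p ran from 0.286 to 0.927. Scd1 was at 2931, 3925, 3455 and 3452 CPM in CB1R KO mice 8, 9, 10 and 11, a log2 fold change of 0.37 ± 0.22 SE over WT bleomycin (edgeR adjusted p = 0.422). Elovl1 was at 494, 450.3, 389.6 and 352.6 CPM, a log2 fold change of 0.30 ± 0.14 SE (adjusted p = 0.286). For Scd1, CB1R KO mice 9, 10 and 11 were above all WT bleomycin mice, and for Elovl1 mice 8 and 9 were. Scd2, at 993.2, 937.9, 920.1 and 878.3 CPM, had a log2 fold change of 0.02 ± 0.08 SE (adjusted p = 0.927). Srebf1, at 124, 132.2, 120.9 and 123.7 CPM, had 0.05 ± 0.06 SE (adjusted p = 0.734). Elovl6, at 11.3, 21.0, 16.1 and 15.97 CPM, had 0.10 ± 0.20 SE (adjusted p = 0.834). The ranges of Scd2, Srebf1 and Elovl6 overlapped between the genotypes.

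Beside control lungs, CB1R KO bleomycin lungs had 2 of the 10 genes higher and none lower, beside 19% of all genes tested higher and 16.3% lower. The genes were Scd1, at 2.98-fold (log2 1.58 ± 0.24 SE, edgeR adjusted p = 0.000196), and Elovl1, at 1.57-fold (log2 0.65 ± 0.15 SE, adjusted p = 0.00321). Every CB1R KO mouse was above every control for both. For Srebf1, which was not called, every CB1R KO mouse was below every control, at 120.9 to 132.2 against 133.3 to 145.6 CPM. These comparisons use the control mice of the comparison above, so the values are only set side by side. Dgat2 stood at -0.55 ± 0.24 SE (adjusted p = 0.0821) against control, Gpam at -0.15 ± 0.09 SE (adjusted p = 0.242), Acly at -0.09 ± 0.09 SE (adjusted p = 0.477) and Srebf1 at -0.15 ± 0.06 SE (adjusted p = 0.0788). Fasn stood at 0.33 ± 0.15 SE (adjusted p = 0.0903), Acaca at 0.26 ± 0.15 SE (adjusted p = 0.189), Elovl6 at 0.52 ± 0.22 SE (adjusted p = 0.0763) and Scd2 at -0.02 ± 0.09 SE (adjusted p = 0.897). Without control mouse 3, Fasn (0.50, adjusted p = 0.00866), Acaca (0.44, adjusted p = 0.0128) and Elovl6 (0.78, adjusted p = 0.00741) were called higher as well. Without CB1R KO mouse 8, Fasn (0.45, adjusted p = 0.0205) and Elovl6 (0.65, adjusted p = 0.0298) were called higher, and without CB1R KO mouse 11, Dgat2 was called lower (-0.75, adjusted p = 0.0338).

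The other genes of the same steps were listed by role, 57 in all, of which 52 passed the count filter. Between WT bleomycin and control, 11 of the 52 rose and 19 fell, beside 25% of all genes tested higher and 23.9% lower. The median log2 fold change was -0.10, beside -0.01 over all genes tested. Those shares also stand beside the counts of each list below. Between CB1R KO and WT bleomycin 1 of the 52 was called, beside 0.359% of all genes tested higher and 0.62% lower. At an unadjusted p under 0.05, 12 passed, beside 2608 of the 15315 genes tested, and the median was 0.10, beside 0.00. Between CB1R KO bleomycin and control 12 rose and 12 fell, beside 19% of all genes tested higher and 16.3% lower.

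**Figure D4:**
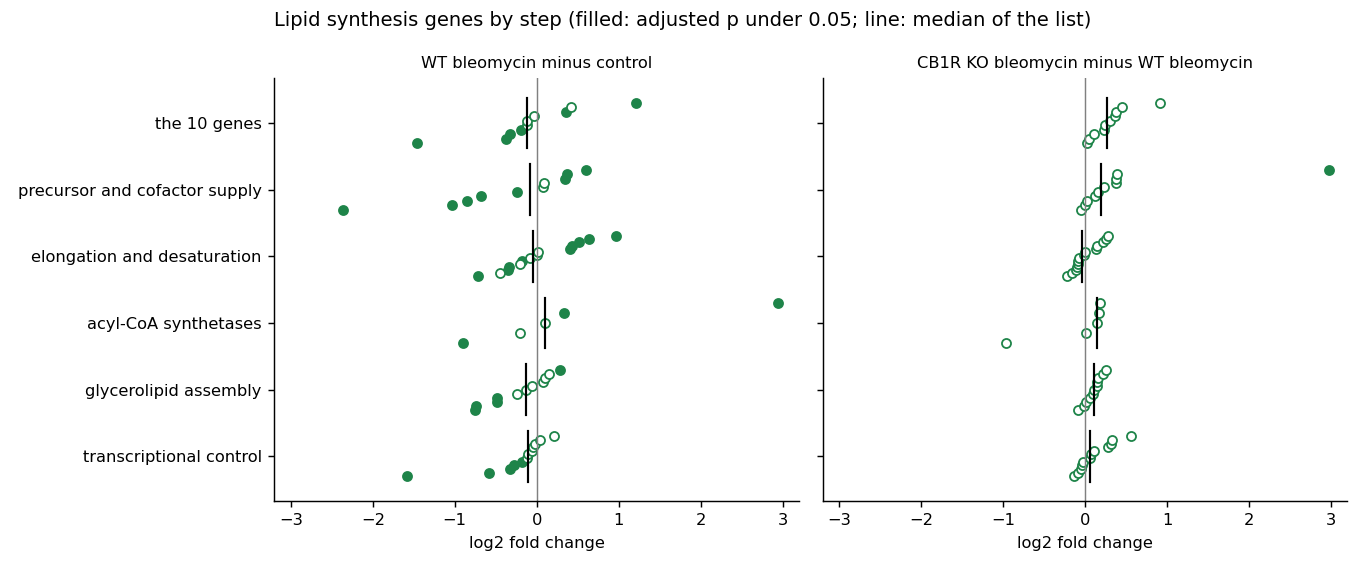
Log2 fold changes of the 10 genes and of 52 other lipid synthesis genes in 5 lists, for WT bleomycin minus control (left) and CB1R KO minus WT bleomycin (right), with filled circles for an edgeR adjusted p under 0.05 and a line at the median of each list. On the left filled circles lie on both sides of 0 in every list but transcriptional control, where all 5 lie below it, and on the right the single filled circle is Thrsp.

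Genes that supply acetyl-CoA and NADPH or tune the carboxylase moved in opposite directions after bleomycin, 3 of 10 higher and 5 of 10 lower. The pentose phosphate dehydrogenases that make NADPH rose: Pgd went from a mean of 134.5 to 204 CPM (log2 0.60 ± 0.08 SE) and G6pdx from 61.5 to 77.8 CPM (0.34 ± 0.07 SE). Acss2, which makes acetyl-CoA from acetate, fell from 44.0 to 24.3 CPM (-0.85 ± 0.13 SE). Mid1ip1, a partner of the carboxylase, fell from 216.1 to 134.5 CPM (-0.68 ± 0.07 SE). These 4 genes were named for the lowest p in this comparison, a choice that favours a small p and separate groups. None overlapped between the groups, where the share of all genes tested without overlap was not counted. The largest edgeR adjusted p among them was 0.000689.

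Thrsp (Spot 14), a relative of Mid1ip1 that is highest in fat and liver, was the one listed gene called between the genotypes. It was at 18.7, 6.31, 4.29 and 15.9 CPM in control mice 3, 21, 24 and 26, and at 3.75, 2.49, 2.19, 1.57 and 0.946 CPM in WT bleomycin mice 4, 2, 5, 4-B2 and 7. CB1R KO mice 8, 9, 10 and 11 had 4.72, 16.2, 9.65 and 36.5 CPM. All CB1R KO and all control mice were above all WT bleomycin mice. Control mice 3 and 26 and CB1R KO mice 9 and 11, which had the most adipocyte markers of their groups, also had the most Thrsp. The log2 fold change was -2.37 ± 0.59 SE for WT bleomycin against control (edgeR adjusted p = 0.00417) and 2.97 ± 0.58 SE for CB1R KO against WT bleomycin (adjusted p = 0.0314). The second call was lost when any one of WT mice 2, 5, 4-B2 and 7 or CB1R KO mice 9 and 11 was left out (adjusted p from 0.0657 to 0.0946). With the adipocyte markers in the model the values were -0.42 (adjusted p = 0.472) and 1.30 (adjusted p = 0.435). That fit called no gene between the genotypes, and its marker level is partly tied to genotype.

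Among elongation and desaturation genes, 5 of 14 rose and 4 fell after bleomycin. The rises with the lowest p were in Hacd1, a dehydratase of the elongation cycle, from 6.89 to 13.5 CPM (log2 0.97 ± 0.11 SE), and in Hsd17b12, its ketoreductase, from 65.7 to 88.8 CPM (0.44 ± 0.06 SE). The falls were in Hacd3, from 108.8 to 85.8 CPM (-0.34 ± 0.06 SE), and in Elovl5, an elongase of polyunsaturated acids, from 291.9 to 228.9 CPM (-0.35 ± 0.07 SE). Hacd3 thus fell while its paralogue Hacd1 rose, and the paralogues Hacd2 and Hacd4 were called higher too. Their log2 fold changes were 0.41 ± 0.10 SE for Hacd2 (edgeR adjusted p = 0.00285) and 0.64 ± 0.13 SE for Hacd4 (adjusted p = 0.000754). Hacd1, Hsd17b12, Hacd3 and Elovl5 were named for the lowest p in this comparison, a choice that favours a small p and separate groups. The largest edgeR adjusted p of these 4 was 0.000996 and none overlapped between the groups, a share not counted over all genes tested. Hacd3 had a log2 fold change of 0.25 ± 0.06 SE between CB1R KO and WT bleomycin (adjusted p = 0.0761), and without CB1R KO mouse 10 it was 0.31 (adjusted p = 0.0133).

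Acyl-CoA synthetases, which activate fatty acids for use, had 2 of 5 genes higher and 1 lower. Acsl1, the main isoform of fat and liver, fell from 115.8 to 61.9 CPM (log2 -0.90 ± 0.12 SE), and Acsl4, which prefers arachidonate, rose from 170.3 to 214.7 CPM (0.34 ± 0.07 SE). Acsl6 was near the limit of counting, at 0.128 to 0.577 CPM in controls and 1.70 to 3.51 CPM in WT bleomycin mice (2.94 ± 0.45 SE). The 3 were named because they were called in this comparison, a choice that favours a small p and separate groups. Their largest edgeR adjusted p was 0.00177 and none overlapped between WT bleomycin and control, a share not counted over all genes tested.

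Glycerolipid assembly had 1 of 11 genes higher and 4 lower. Lpin1, a phosphatidate phosphatase, fell from 78.2 to 46.3 CPM (log2 -0.76 ± 0.12 SE, edgeR adjusted p = 0.000165), and Gpat3, an acyltransferase of the first step, from 8.55 to 6.09 CPM (-0.49 ± 0.12 SE, adjusted p = 0.00317). Dgat1, which catalyses the same final reaction as Dgat2, was called in the other direction. It was at 18.0, 15.4, 14.6 and 16.9 CPM in control mice 3, 21, 24 and 26 and at 20.6, 16.7, 21.0, 21.8 and 18.8 CPM in WT bleomycin mice 4, 2, 5, 4-B2 and 7, with WT mouse 2 inside the control range (log2 0.28 ± 0.11 SE, adjusted p = 0.0391). This call was lost when any one of control mice 21, 24 and 26 or WT mice 4, 5 and 4-B2 was left out (adjusted p from 0.0607 to 0.115).

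Genes of transcriptional control had 5 of 12 lower and none higher after bleomycin, beside 23.9% of all genes tested lower and 25% higher. Mlxipl, which encodes the glucose-sensing factor ChREBP, fell from 6.17 to 2.05 CPM (log2 -1.58 ± 0.24 SE, edgeR adjusted p = 0.000103). Insig1, which holds SREBP in the endoplasmic reticulum, fell from 91.2 to 61.0 CPM (-0.58 ± 0.10 SE, adjusted p = 0.000193). Insig1 was at 77.5, 81.6, 77.2 and 70.5 CPM in CB1R KO mice 8, 9, 10 and 11, above every WT bleomycin mouse, with a log2 fold change of 0.33 ± 0.10 SE (adjusted p = 0.112). Without control mouse 3 that adjusted p was 0.0439.

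Marker genes of other cells are given as counts and summed levels. Their counts between WT bleomycin and control stand beside 25% of all genes tested higher and 23.9% lower. Between WT bleomycin and control, type II cell markers had 1 of 10 higher and 6 lower, with sums of 20002 to 23661 CPM in control and 12971 to 14757 CPM in WT bleomycin mice. Lipofibroblast markers had 1 of 6 higher and 5 lower, with sums of 3220 to 3889 CPM in control, 1039 to 1407 CPM in WT bleomycin and 1214 to 2369 CPM in CB1R KO bleomycin mice. Alveolar macrophage markers had 2 of 8 higher (Plet1 and Atp6v0d2) and 3 lower (Fabp1, Car4 and Krt79). Their sums were 659.6 to 1902 CPM in control, 769.3 to 1237 CPM in WT bleomycin and 736.4 to 1247 CPM in CB1R KO bleomycin mice. Most of this sum was Chil3, at means of 708.1, 701.1 and 739.6 CPM in these groups, so it says little of the other markers. Markers of monocyte-derived macrophages were higher in 7 of 7, with sums of 700 to 848.1 CPM in control, 3308 to 3831 CPM in WT bleomycin and 2471 to 3590 CPM in CB1R KO bleomycin mice. No listed marker was at 0 in any library except Lep in WT bleomycin. Between CB1R KO and WT bleomycin, none of the 8 alveolar and none of the 7 monocyte-derived macrophage markers was called. Of all genes tested, only 0.359% were called higher and 0.62% lower there, so few calls would be found in lists this short. Of these markers 6 and 3 were above 0, beside 7673 of the 15315 genes tested. At an unadjusted p under 0.05, 3 and 2 passed, beside 2608 of all genes tested. The part of the macrophage and lipofibroblast markers in the results was not tested. The adipocyte and type II markers were tried as covariates: the rise of Scd1 was 1.58 ± 0.31 SE with the first (edgeR adjusted p = 0.00202) and 1.14 ± 0.40 SE with the second (adjusted p = 0.0893). Since the mean log2 level of the type II markers did not overlap between control and WT bleomycin, it cannot be told apart from bleomycin in that fit, in which none of the 6 calls among the 10 genes was kept.

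**Figure D5:**
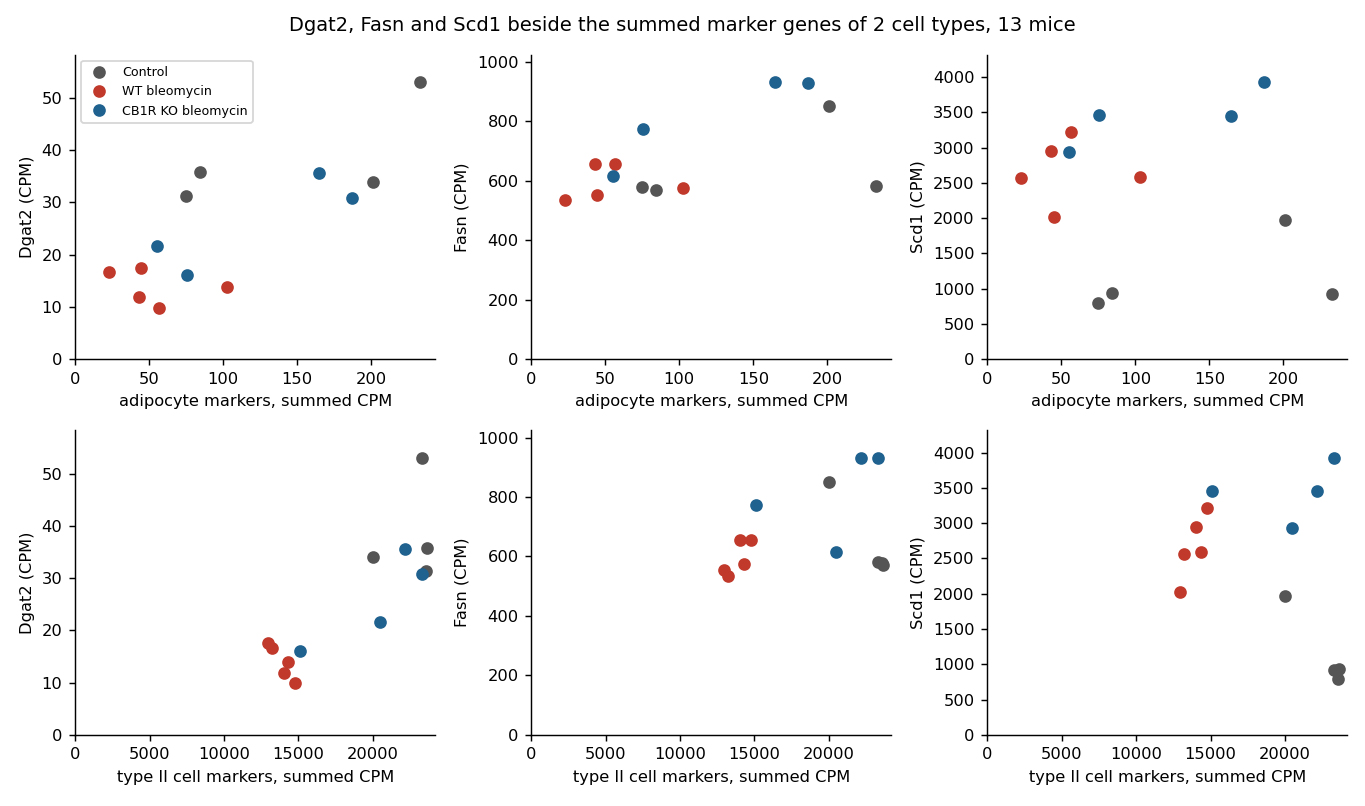
Dgat2, Fasn and Scd1 (CPM) against the summed CPM of 8 adipocyte markers (top) and 10 type II cell markers (bottom) in 13 mice. Control mouse 26, which has the highest adipocyte sum (232.7 CPM), has the most Dgat2 at 53.0 CPM, while its Scd1 is at 918.9 CPM, below every bleomycin-treated mouse.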

How the data were processed

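The authors' processing notes name kallisto and GRCm39, and their methods Ensembl release 105, restricted to protein-coding transcripts, from paired-end reads of 150 bases. The deposited tables hold estimated counts per gene symbol, not normalised, and TPM, which the authors' quantification scales for transcript length and library total. The 13 single-sample tables held the same values, and 1 column of the TPM table that matches no sample was not used.

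Estimated counts were rounded, filtered with filterByExpr, normalised by TMM and tested with edgeR 4.0.16 (R 4.3.3) in 1 fit of 13 libraries, with Benjamini-Hochberg adjustment over 15315 genes at 0.05. The procedure was tested on simulated data. The 10 genes, the lists and the tests were chosen with earlier results of these data known. Besides the 10 genes, the genes named were Cnr1, every listed gene called between CB1R KO and WT bleomycin, and, per list, the 2 rises and 2 falls of lowest p among those called between WT bleomycin and control. Hacd2 and Hacd4 were added beside their paralogues. Marker lists covered adipocytes, type II cells, lipofibroblasts, alveolar and monocyte-derived macrophages and lung tissue. The median standard error over all genes was 0.11 to 0.12. Alternatives used DESeq2 1.42.0 and limma 3.58.1 on log2(TPM + 1) and log2(TPM + 0.1), other filters (at least 10 counts in every library) and normalisations, fits of 2 groups, label style, marker scores, thinning of CB1R KO mouse 11, and each library left out. Proteins of the 10 genes were not used here. Python 3.11.15, pandas 2.3.3, numpy 2.4.6 and matplotlib 3.10.9 made tables and plots.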

Additional observations from a re-analysis of the deposited data

Results flagged for a closer look

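Of 30 sets of values (10 genes in 3 groups), 5 held a mouse whose gap to the nearest of its group was large for a group of that size, where chance gives about 1 in 20. In 4 of them the mouse was control mouse 3: Fasn at 850 CPM beside 569.9 to 582.4 CPM in the other controls, Acaca at 133.2 CPM beside 83.7 to 89.2 CPM, Acly at 372.1 CPM beside 295.1 to 301.1 CPM, and Scd1 at 1968 CPM beside 796.4 to 936 CPM. These genes stand in 1 pathway and 1 library, so the 4 are not independent. Gpam in WT bleomycin mouse 7 was at 150.2 CPM beside 123.1 to 128.9 CPM in the other WT bleomycin mice.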

How the results depend on the processing

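Of 810 recomputed fold changes of the 10 genes (30 values under 27 alternatives), 749 kept their direction and side of the threshold, 21 lost a call, 18 gained one and 22 changed sign. Of 646 for the other named genes, Hacd2 and Hacd4 not among them, 598 were kept, 39 lost a call, 8 gained one and 1 changed sign. That 1 was Acsl6 between CB1R KO and WT bleomycin with type II markers (0.052). The cause of these changes was not tested.
No paired analysis was possible because the groups share no mouse numbers, so no replicate block was fitted.
Calls among the 10 genes between WT bleomycin and control, 6, were 0 with type II markers as a covariate. Between CB1R KO and WT bleomycin, 0, they were 2 with DESeq2 on all libraries, 3 with DESeq2 on 2 groups, 1 with label style as a covariate and 0 to 2 with a library left out. Between CB1R KO bleomycin and control, 2, they were 4 with adipocyte markers and 2 to 5 with a library left out. Calls among the other lipid genes between WT bleomycin and control, 30, were 2 with type II markers. Between CB1R KO and WT bleomycin, 1, they were 4 and 3 with DESeq2 on all libraries and on 2 groups, 2 with edgeR on 2 groups, 0 with limma at either pseudocount, label style, lower-case labels alone, adipocyte or type II markers, and 0 to 2 with a library left out. Over all genes, the 7492 calls between WT bleomycin and control were 4746 with adipocyte and 1615 with type II markers. The 150 calls between CB1R KO and WT bleomycin were 640 and 644 with DESeq2 on all libraries and on 2 groups, 93 with limma on log2(TPM + 0.1), 88 with edgeR on 2 groups, 41 with label style, 6 with lower-case labels alone, 0 with adipocyte or type II markers, and 1 to 653 with a library left out (653 without CB1R KO mouse 10, 1 without mouse 9, 3 without mouse 11).
Signs turned with adipocyte markers for Fasn (0.165) and Acaca (0.209) against control in WT bleomycin, and for Elovl6 (-0.294) and Srebf1 (-0.002) between the genotypes. With type II markers they turned between the genotypes for Srebf1 (-0.021) and Gpam (-0.056). With lower-case labels alone they turned for Srebf1 between the genotypes (-0.005) and Scd2 between CB1R KO bleomycin and control (0.026), and for the latter also with limma (0.066 and 0.067) and label style (0.004).
With a library left out, the log2 fold change ran from -0.171 to 0.047 for Fasn, -0.193 to 0.059 for Acaca and -0.089 to 0.015 for Scd2 between WT bleomycin and control, from -0.032 to 0.064 for Scd2 and -0.047 to 0.233 for Elovl6 between the genotypes, and from -0.119 to 0.003 for Acly and -0.069 to 0.02 for Scd2 between CB1R KO bleomycin and control.
Scd1 and Dgat2 between WT bleomycin and control lost their call in 1 of 27 alternatives, type II markers. Elovl1 lost it in 12 of 27. Elovl6, at 8.22 to 21.0 CPM, and Dgat2, at 9.87 to 53.0 CPM, rest on the fewest counts of the 10, and the standard errors of 0.20 to 0.22 for Elovl6 limit what difference could be seen.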
